A study of Homo sapiens with 18 samples.

Results

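HOX genes encode homeodomain transcription factors that stand in 4 clusters, HOXA, HOXB, HOXC and HOXD. Within a cluster the genes at the 3′ end (low numbers) act in anterior parts of the embryo and those at the 5′ end (high numbers) in posterior parts, and genes with the same number in different clusters are paralogues. In the adult gut, HOX genes are known to keep regional patterns along its length, and Polycomb and trithorax complexes are known to hold their chromatin silent or active. The members described here are 38 listed HOX genes, each read from the probe set that named 1 gene and had the highest mean over the lines. Of these, 29 could be read, out of 19774 genes in all: 1 of 10 HOXA genes, 10 of 10 HOXB genes, 9 of 9 HOXC genes and 9 of 9 HOXD genes. HOXA3, HOXA4, HOXA5, HOXA6, HOXA7, HOXA9, HOXA10, HOXA11 and HOXA13 had no named probe set and were not analysed here.

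Total RNA of 18 established cell lines, all labelled CRC (colorectal cancer), was labelled with biotin and measured on 1 array per line. HUTU80 carries the same label but is known as a line of the duodenum. The medium was DMEM/F-12 for 10 lines (CAR1, CL40, HT55, HUTU80, LS180, OUMS23, RKO, SW1463, SW48 and SW948) and RPMI 1640 for 8 lines (COLO320HSR, HCT116, KM12, LS513, MDST8, NCIH716, RCM1 and SNUC1). No line was treated and none was measured again, so a difference between lines has no replicate check, and precision is limited by the number of arrays. Values are log2 intensities, in which 1 unit is a doubling, and levels of different genes were not compared because each probe set has its own brightness. A gene was read as detected above 4.40 log2 units, the 95th percentile of 88 probe sets of genes thought to be silent in the colon. Array medians lay between 3.65 and 3.69, and between 9905 and 10478 genes were detected per line. The lines were unlike in cell identity: of 8 measured intestinal epithelium markers, all 8 were detected in SNUC1, HT55, SW948, SW1463, LS513 and CL40, and 1 in MDST8, CAR1 and OUMS23.

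HOX genes differed widely among the lines. In these bulk RNA samples fewer expressing cells and less RNA per cell cannot be told apart. Of the 29 members, 27 were detected in at least 1 line, against 69.4% of all genes, and 3 (HOXB4, HOXB5 and HOXB7) in all 18, against 37.5% of all genes. The other 24 detected members were on in some lines and off in others, a pattern shared by 31.9% of all genes. A range of 3 log2 units or more was seen in 22 of 29 members, against 24.8% of all genes, and the median SD over lines was 1.00 log2 units for the members and 0.45 for all genes. A value above 6 log2 units in at least 1 line was reached by 22 of 29 members, against 58.7% of all genes, and in all 18 lines by HOXB7, 1 of 29, against 27.0%. HOXB1 and HOXD12 were detected in no line. The share of member values above background was 76.7% in the HOXB cluster (138 of 180), 31.5% in HOXC (51 of 162) and 20.4% in HOXD (33 of 162), with 51.6% over all genes.

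**Figure D1:**
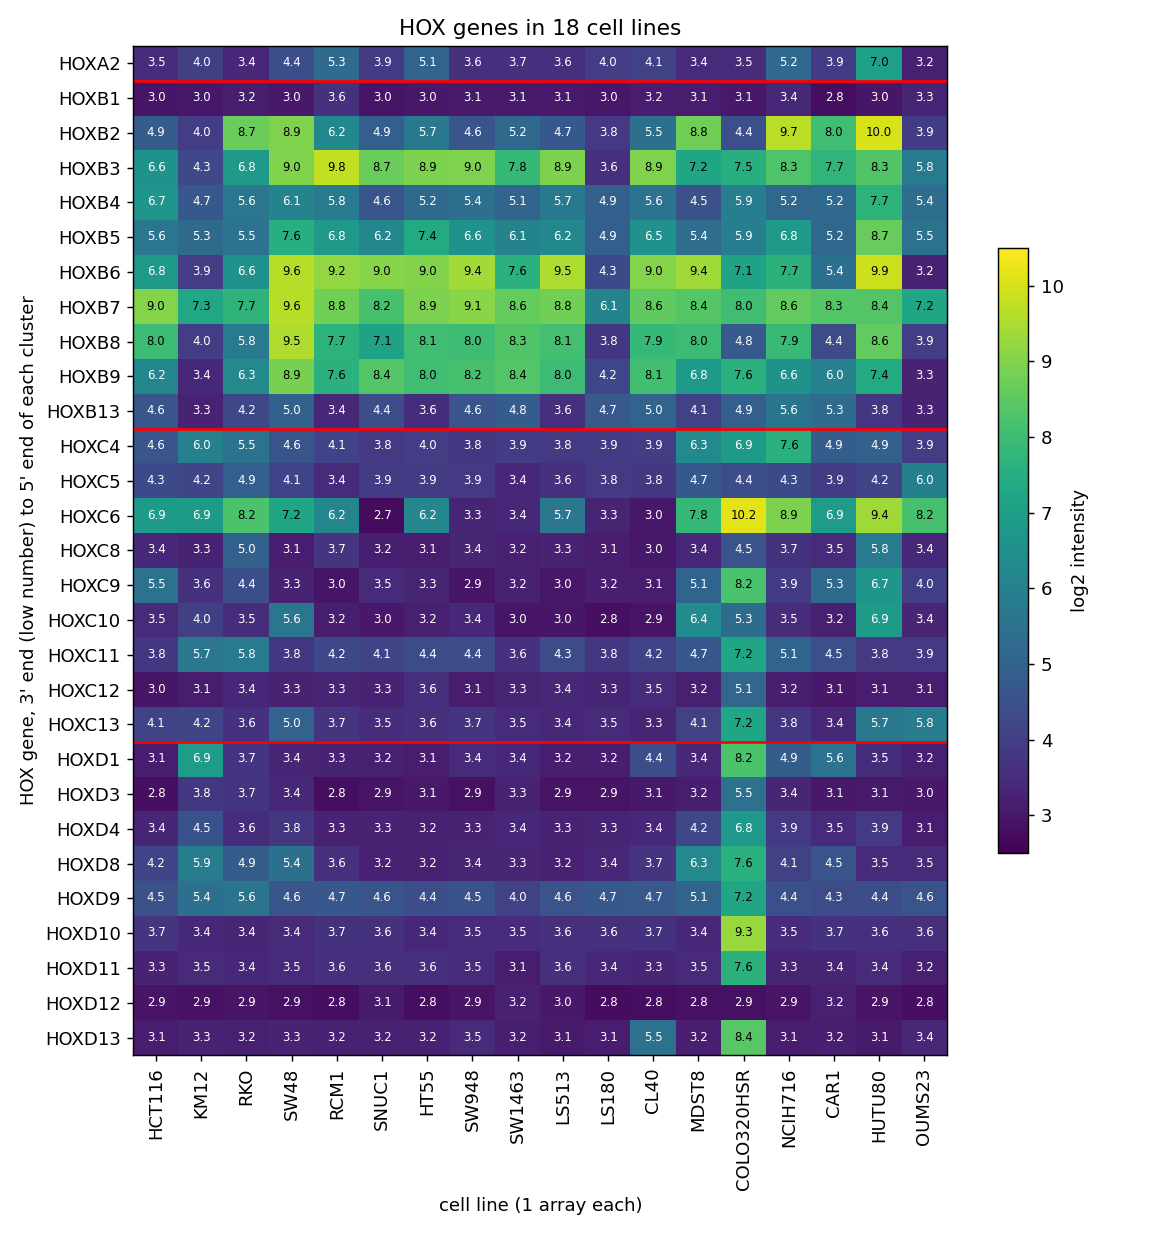
Log2 intensity of 29 HOX genes (down the page, 3′ to 5′ within each cluster, red lines between clusters) in 18 cell lines (across, 1 array each). HOXB3 and HOXB5 to HOXB9 are above 6 log2 units in 10 to 18 lines, HOXB2 in 7 and HOXB4 in 3. The HOXD genes other than HOXD12 are detected in COLO320HSR.

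COLO320HSR carried the broadest HOX expression of the panel. It had 26 of 29 members detected, where 50.5% of all genes were detected in that line, and it was the highest line for 13 of 29 members, against 7.31% of all genes. All 9 HOXC genes, 8 of 9 HOXD genes and 9 of 10 HOXB genes were on. HOXC12, HOXD3, HOXD10 and HOXD11 were detected in COLO320HSR and in no other line, 4 of 29 members against 0.435% of all genes. HOXD10 and HOXD11 also lay at least 3 log2 units above every other line, 2 of 29 members against 0.157% of all genes.

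The block at the 5′ end of HOXD, which patterns limbs and the hindgut and urogenital region in the embryo, stood out most. HOXD10 was at 9.27 in COLO320HSR and between 3.36 and 3.70 in the other 17 lines, whose values do not exceed background. HOXD11 was at 7.63 in COLO320HSR and between 3.10 and 3.62 in the others. HOXD13, the last gene of the cluster, was at 8.42 in COLO320HSR, at 5.50 in CL40 and at or under 3.46 in the remaining 16. All 3 HOXD10 probe sets and all 3 HOXD13 probe sets had COLO320HSR as their highest line. HOXD12 lies between HOXD13 and HOXD11 and was at 2.86 in COLO320HSR, with 2.77 to 3.24 in the other lines, so the block had 1 gene that was not detected. This gene was read by a single probe set. The 4 promoter windows of this block are shown because the genes are neighbours and differ in detection. Each runs from 250 bases before to 50 bases after an annotated start (RefSeq, GRCh38.p14, plus strand), with CG dinucleotides in capitals. The HOXD13 window lies within the annotated span of the gene, which begins at 176087487, so its start is not the outermost one.
HOXD13, chr2:176092471-176092770: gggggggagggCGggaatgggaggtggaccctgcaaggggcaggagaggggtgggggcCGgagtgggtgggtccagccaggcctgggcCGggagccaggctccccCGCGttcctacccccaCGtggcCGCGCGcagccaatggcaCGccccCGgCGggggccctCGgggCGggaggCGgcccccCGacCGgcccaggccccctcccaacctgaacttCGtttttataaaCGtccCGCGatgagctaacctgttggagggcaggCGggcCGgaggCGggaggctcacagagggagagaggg
HOXD12, chr2:176099545-176099844: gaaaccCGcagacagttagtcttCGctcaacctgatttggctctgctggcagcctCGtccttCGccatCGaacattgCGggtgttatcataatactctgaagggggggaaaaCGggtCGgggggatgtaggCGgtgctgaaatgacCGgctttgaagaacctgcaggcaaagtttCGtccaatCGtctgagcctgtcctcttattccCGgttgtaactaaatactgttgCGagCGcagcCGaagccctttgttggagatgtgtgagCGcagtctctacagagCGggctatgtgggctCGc
HOXD11, chr2:176107030-176107329: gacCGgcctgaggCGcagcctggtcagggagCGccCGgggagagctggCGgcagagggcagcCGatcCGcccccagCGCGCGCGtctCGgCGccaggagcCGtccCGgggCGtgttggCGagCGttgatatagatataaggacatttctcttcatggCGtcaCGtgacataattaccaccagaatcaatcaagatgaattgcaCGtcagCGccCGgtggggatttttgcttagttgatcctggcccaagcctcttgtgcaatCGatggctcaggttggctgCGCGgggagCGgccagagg
HOXD10, chr2:176116528-176116827: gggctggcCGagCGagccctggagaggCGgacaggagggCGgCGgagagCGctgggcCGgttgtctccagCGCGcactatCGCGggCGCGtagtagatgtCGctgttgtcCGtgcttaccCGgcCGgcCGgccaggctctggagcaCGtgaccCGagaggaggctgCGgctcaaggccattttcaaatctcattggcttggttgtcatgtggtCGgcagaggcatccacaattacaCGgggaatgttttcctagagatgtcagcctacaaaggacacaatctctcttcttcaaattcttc
The windows hold 24 CG dinucleotides at HOXD13, 19 at HOXD12, 27 at HOXD11 and 23 at HOXD10, so the undetected gene has a CG-rich start like its neighbours. A promoter window was given for 12 of 29 members, in 11 distinct windows. These members were HOXA2, HOXB1, HOXC4 and HOXC5 (which share a window) and all HOXD genes except HOXD9. The windows are thus mostly of HOXD and do not cover the HOX genes evenly. The observed over expected CG ratio had a median of 0.86 in these 11 windows and 0.58 in 34943 windows of all genes, and it was over 0.6 in 9 of 11 (81.8%), against 48.7% of all windows. The letters TTTAT, or ATAAA on the other strand, which CDX factors are known to bind, were in 5 of 11 windows (45.5%) and in 35.0% of all windows.

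The rest of HOXD was also highest in COLO320HSR. HOXD1, at the 3′ end, was at 8.24 in COLO320HSR, 6.90 in KM12, 5.55 in CAR1 and 4.86 in NCIH716, and was not detected in the other 14 lines. Its second probe set was detected in no line, at 2.86 in COLO320HSR and 2.90 in KM12. HOXD3 was at 5.50 in COLO320HSR and at most 3.80 elsewhere. Its other 2 probe sets were detected in no line, at 2.98 and 3.53 in COLO320HSR, so its detection there rests on 1 of 3 probe sets. HOXD4 was at 6.81 in COLO320HSR and 4.50 in KM12, and its gene body overlaps that of HOXD3. KM12 was the second line for HOXD1 and, by the probe set used, for HOXD4. A probe set that names both HOXD4 and the microRNA gene MIR10B was not used. It was at 7.09 in COLO320HSR, 4.48 in MDST8 and 4.23 in KM12, so KM12 was not detected by it. HOXD8 was at 7.56 in COLO320HSR, 6.27 in MDST8, 5.89 in KM12, 5.44 in SW48, 4.87 in RKO and 4.54 in CAR1. HOXD9 was at 7.19 in COLO320HSR and between 4.04 and 5.57 in the other lines. Its 16 detected lines therefore include many near background, and its other probe set was detected in no line. SW1463 had no HOXD gene detected.

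HOXC genes, which pattern the trunk and hind part of the body axis, were not detected at all in some lines. No HOXC gene was detected in SNUC1, SW1463, LS180 and CL40, 1 was detected in RCM1, HT55, SW948 and LS513, and 6 in RKO, MDST8 and HUTU80. The 1 gene was HOXC6 in RCM1, HT55 and LS513. In SW948 it was HOXC11, at 4.41, just above the background level of 4.40. HOXC6 was the HOXC gene detected in most lines. It was at 10.17 in COLO320HSR, 9.36 in HUTU80, 8.91 in NCIH716, 8.24 in RKO and 8.16 in OUMS23, between 5.68 and 7.84 in MDST8, SW48, CAR1, HCT116, KM12, HT55, RCM1 and LS513, and at most 3.39 in SW1463, SW948, LS180, CL40 and SNUC1. Its off values and on values were separated by a gap from 3.39 to 5.68. HOXC4, HOXC5 and HOXC6 have the same annotated start, so a shared transcript may feed more than 1 of them. HOXC4 was at 7.59 in NCIH716, 6.85 in COLO320HSR, 6.34 in MDST8 and 5.97 in KM12, and was detected in 9 lines. HOXC5 reached 5.97 in OUMS23, where HOXC4 was not detected at 3.94.

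HOXC8 to HOXC13 were on in fewer lines than HOXC6, from 1 line for HOXC12 to 7 for HOXC11, against 13 for HOXC6. HOXC8 was at 5.84 in HUTU80, 4.99 in RKO and 4.55 in COLO320HSR. HOXC9 was at 8.21 in COLO320HSR, 6.67 in HUTU80, 5.51 in HCT116, 5.25 in CAR1, 5.08 in MDST8 and 4.41 in RKO. HOXC10 was at 6.85 in HUTU80, 6.35 in MDST8, 5.65 in SW48 and 5.32 in COLO320HSR. These 3 genes shared COLO320HSR and HUTU80 as detected lines. HOXC11 was at 7.19 in COLO320HSR, 5.79 in RKO and 5.69 in KM12, and at 3.84 in HUTU80. HOXC12 was at 5.14 in COLO320HSR and at most 3.61 elsewhere. HOXC13, which is known in hair and nail formation, was at 7.25 in COLO320HSR, 5.84 in OUMS23, 5.73 in HUTU80 and 5.02 in SW48. Each HOXC gene was read by 1 probe set, so none has a second reading.

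**Figure D2:**
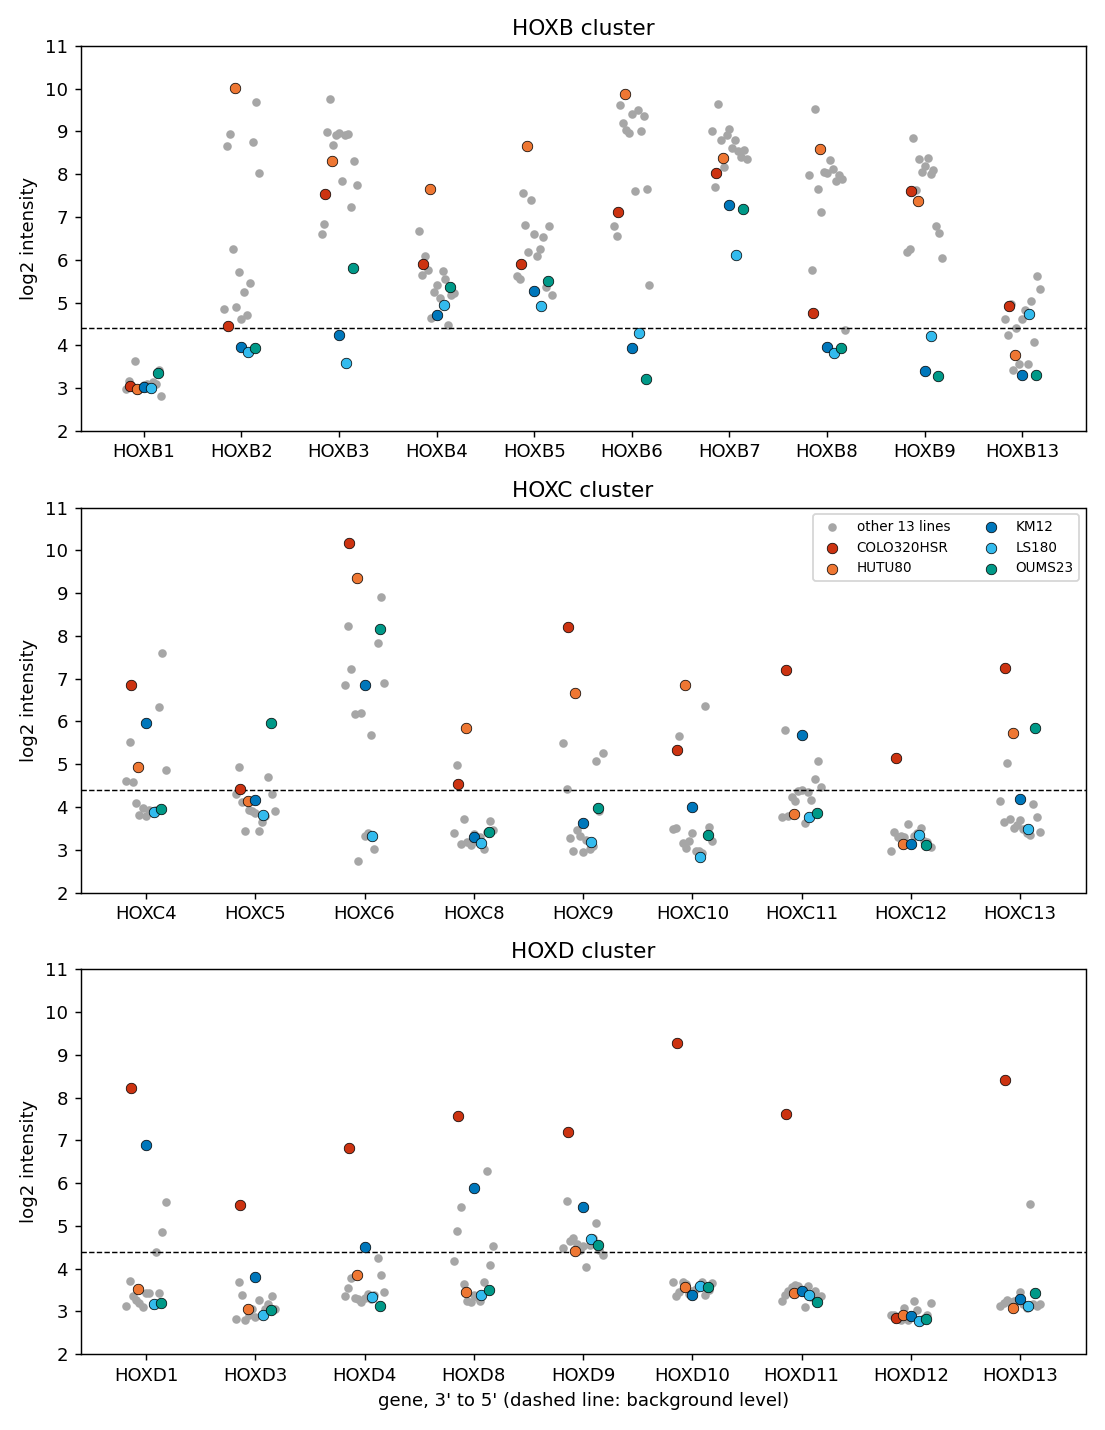
Log2 intensity of each HOXB, HOXC and HOXD gene (across, 3′ to 5′) in the 18 lines (points), with 5 lines coloured and the background level of 4.40 dashed. COLO320HSR lies above all other lines for HOXD10 and HOXD11, and KM12, LS180 and OUMS23 lie under background for HOXB2, HOXB6, HOXB8 and HOXB9.

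HOXB2 to HOXB9 formed the block that most lines expressed, and 3 lines lacked much of it. KM12, LS180 and OUMS23 each lay under all of the other 15 lines, with those 15 detected, for HOXB2, HOXB3, HOXB6, HOXB7 and HOXB9. These were 5 of 29 members, against 0.0607% of all genes, and the 3 lines were picked for their low HOXB values. HOXB6 was at 3.94 in KM12, 4.29 in LS180 and 3.22 in OUMS23, and between 5.42 (CAR1) and 9.88 (HUTU80) in the other 15. HOXB9 was at 3.40 in KM12, 4.22 in LS180 and 3.29 in OUMS23, and between 6.03 and 8.86 in the other 15. By the probe sets used, both genes were thus off in these 3 lines and on in the rest. A second HOXB9 probe set gave the same state in all 18 lines. A second HOXB6 probe set was detected in 2 lines and gave the same state in 5 of 18. The other HOXB8 probe sets were detected in 1 and 0 lines, and the other HOXB3 probe sets in 10 and 1. Which lines count as detected for HOXB3, HOXB6 and HOXB8 therefore depends on the probe set chosen. HOXB8 was at 3.96 in KM12, 3.81 in LS180 and 3.95 in OUMS23, with CAR1 also not detected at 4.37 and the highest value, 9.53, in SW48. HOXB3 was at 4.25 in KM12 and 3.58 in LS180 but at 5.81 in OUMS23, with 9.77 in RCM1 as the highest. HOXB7, a gene often studied in tumours, remained detected in the same 3 lines, at 7.29 in KM12, 6.12 in LS180 and 7.20 in OUMS23, against 7.71 to 9.65 in the other 15. All 3 HOXB7 probe sets were detected in all lines. The choice of these 3 lines makes their difference from the others a description.

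HOXB2 was on and off in the same lines as HOXB6 and HOXB9 (18 of 18 lines) but ordered the lines that had it in another way. It was at 10.01 in HUTU80, 9.68 in NCIH716, 8.94 in SW48, 8.75 in MDST8, 8.66 in RKO, 8.03 in CAR1 and 6.25 in RCM1, and between 4.45 and 5.71 in the 8 other lines that had it. HOXB6 was at 5.42 in CAR1 and 6.55 in RKO, both high for HOXB2, while SW948, at 4.63 for HOXB2, was at 9.40 for HOXB6. HOXB4 was highest in HUTU80 (7.67) and HCT116 (6.67) and lowest in MDST8 (4.47). HOXB5 was highest in HUTU80 (8.65) and SW48 (7.56) and lowest in LS180 (4.93). A second HOXB5 probe set was not detected in KM12, RKO and LS180, so detection of HOXB5 in all lines rests on the probe set chosen. HOXB13, a factor of the prostate and distal colon, lies far from the rest of the cluster and was detected in 9 lines, with its highest value, 5.62, in NCIH716 and 5.31 in CAR1. The lowest of the 9 values, 4.62 in SW948, is near background. A second HOXB13 probe set was detected in 6 of these lines, and not in HCT116, LS180 and CL40. HOXB1, a hindbrain gene, stayed between 2.81 and 3.63.

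HOXA2, the 1 readable HOXA gene, acts in the hindbrain and branchial arches. It was at 7.02 in HUTU80, 5.29 in RCM1, 5.24 in NCIH716, 5.08 in HT55 and 4.44 in SW48, and was not detected in the other 13 lines. HUTU80 was the highest line for 7 of 29 members, against 7.46% of all genes, namely HOXA2, HOXB2, HOXB4, HOXB5, HOXB6, HOXC8 and HOXC10, none of them a HOXD gene. SW48 was the highest line for HOXB7, HOXB8 and HOXB9, 3 of 29 members against 5.85% of all genes. HUTU80 and MDST8 each had 9 of 12 mesenchyme markers detected, COLO320HSR 4, and the remaining lines 0 to 5. NCIH716 had 6 of 7 neuroendocrine markers detected and COLO320HSR 1. The part of these differences in cell identity in the HOX values was not tested.

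**Figure D3:**
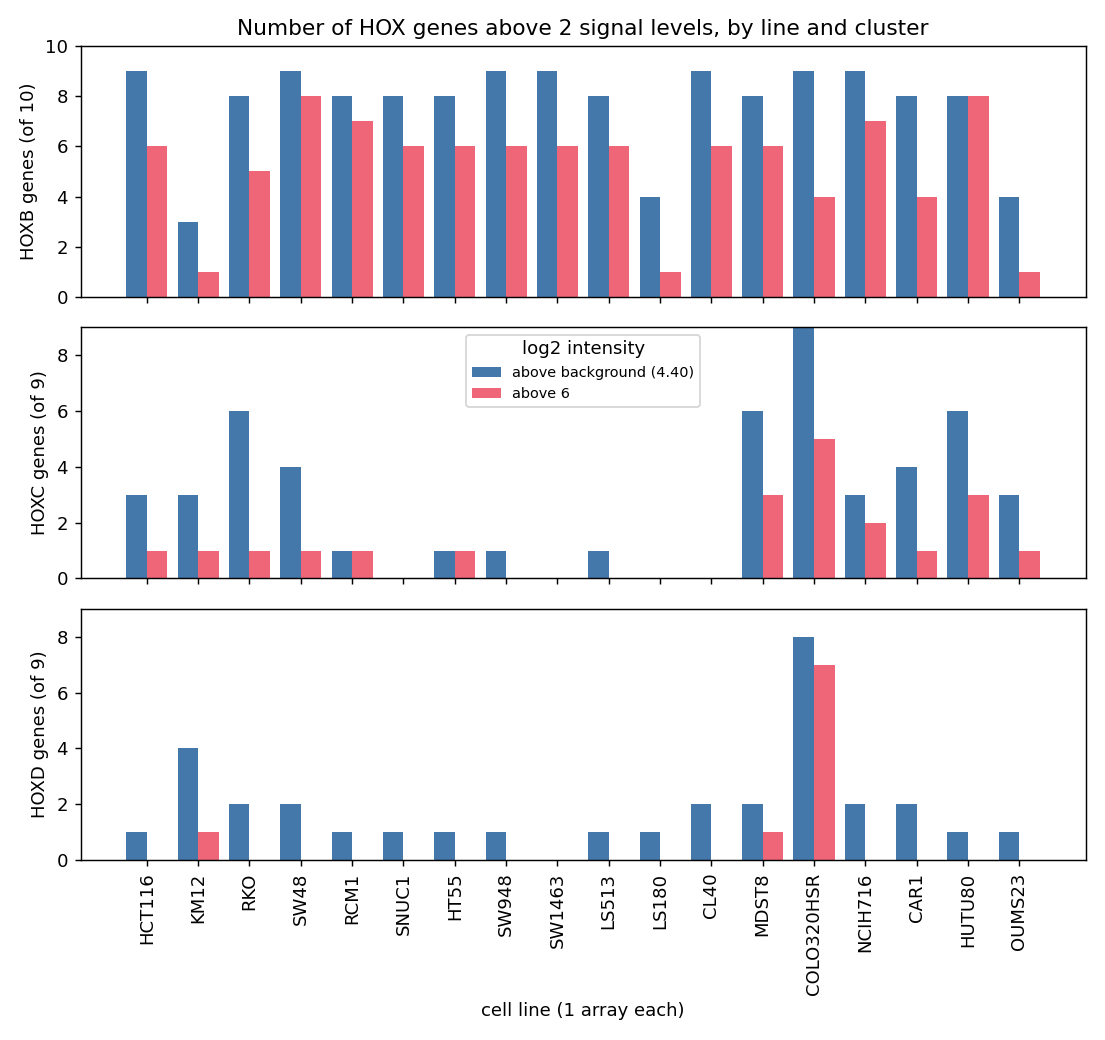
Number of HOXB (of 10), HOXC (of 9) and HOXD (of 9) genes above background (blue) and above 6 log2 units (red) in each line. LS180 has the fewest members above background (5 of 29) and COLO320HSR the most (26 of 29), and HOXC bars are missing in SNUC1, SW1463, LS180 and CL40.

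By line, the number of members detected ran from 5 in LS180 (where 52.2% of all genes were detected) through a median of 11 to 26 in COLO320HSR. The members of SNUC1 and SW948 differed by a root mean square of 0.37 log2 units, those of RCM1 and HT55 by 0.36, and those of LS180 and COLO320HSR by 3.25, with a median of 1.56 over 153 pairs of lines. Over all detected genes the median was 1.47. The nearest line by HOX genes was also the nearest by all detected genes for 1 of 18 lines, SNUC1. COLO320HSR was far from every line, its nearest being RKO at 2.54.

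Genes of the same cluster tended to share their state. Among pairs in which both genes varied between on and off, neighbours were in the same state in a median of 14 of 18 lines (17 pairs), pairs 3 or more steps apart within a cluster also in 14 (47 pairs), and pairs in different clusters in 9 (174 pairs). For neighbouring genes across the genome in which both varied the median was 11 (2207 pairs). Over all neighbours, whether they varied or not, the median was 15 lines for the members (25 pairs) and 13 for all genes (19707 pairs). Where both genes varied, the median was no higher for neighbours than for genes 3 or more steps apart in a cluster. Genes on in most lines (HOXB) and genes off in most lines (HOXD) differ in state in many lines by those frequencies, so these medians are a description. Paralogues in different clusters shared their state in a median of 11 lines (14 pairs).

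**Figure D4:**
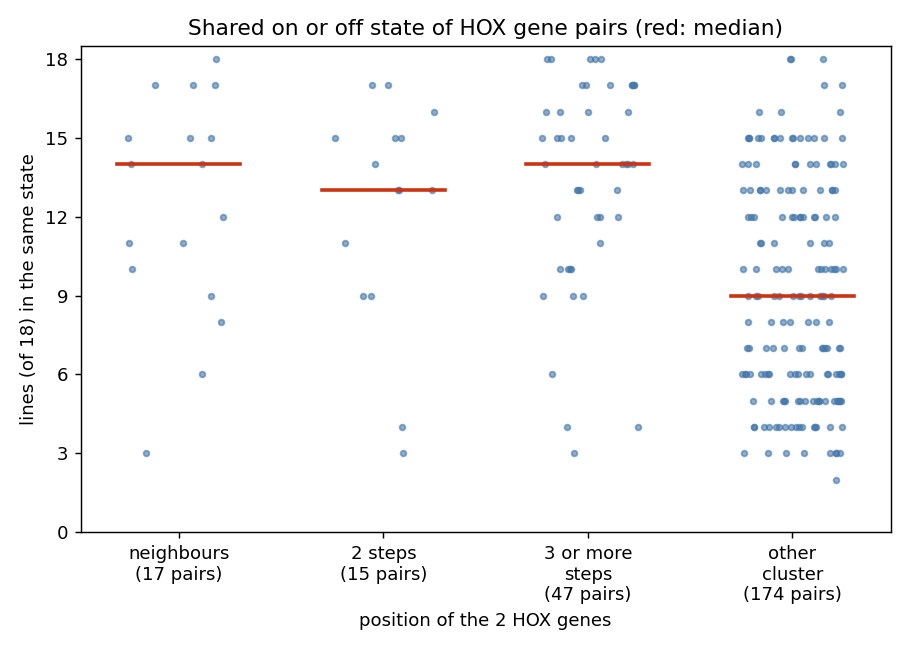
Number of lines (of 18) in which the 2 genes of a pair were both detected or both not detected, for pairs whose genes both vary, by their position (points: pairs; red: median). Medians are 14, 13 and 14 within a cluster and 9 between clusters.

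Partners and neighbours of the clusters varied as well. Of the HOX cofactors, homeodomain proteins that bind DNA with HOX proteins, 8 of 9 could be read and 3 (PBX2, PBX3 and PKNOX1) were detected in all lines. MEIS1 was at 8.44 in NCIH716 and 8.09 in COLO320HSR and above background in 4 other lines. MEIS2 was at 10.52 in HUTU80 and was not detected in RCM1, SNUC1, HT55, LS513 and LS180. PKNOX2 was at 6.68 in COLO320HSR and at most 3.48 elsewhere. PBX3 ranged from 4.75 in LS180 to 10.07 in MDST8, PBX4 was highest in RCM1, and MEIS3 reached 5.40 in HUTU80.

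Of the noncoding RNAs of the clusters, 12 of 19 could be read, 10 were detected in some line and none in all. HOTAIR, which is transcribed within HOXC and is known to bind Polycomb proteins, was at 7.76 in COLO320HSR and at most 3.75 in the other lines. HAGLR, in HOXD, was also highest in COLO320HSR (6.39), followed by NCIH716 (5.55). HOXD-AS2 had another pattern, at 8.14 in MDST8 and 7.85 in KM12 but not detected in COLO320HSR, and HAGLROS was at 7.33 in RKO. HOXB-AS3 was at 8.71 in RCM1, 8.63 in LS513, 8.63 in SW48, 6.62 in SNUC1, 6.23 in CL40 and 5.81 in SW948, lines that are all among the 8 highest for HOXB6. HT55, HUTU80 and MDST8 had HOXB6 at 8.97, 9.88 and 9.36 without detected HOXB-AS3. HOXB-AS4 reached 7.51 in SNUC1, HOXA-AS2 6.24 in HUTU80, HOXA-AS3 5.48 in NCIH716, HOXA11-AS 5.43 in LS180 and HOXB-AS1 4.43 in NCIH716, and HOTTIP and HOXC-AS3 were not detected.

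**Figure D5:**
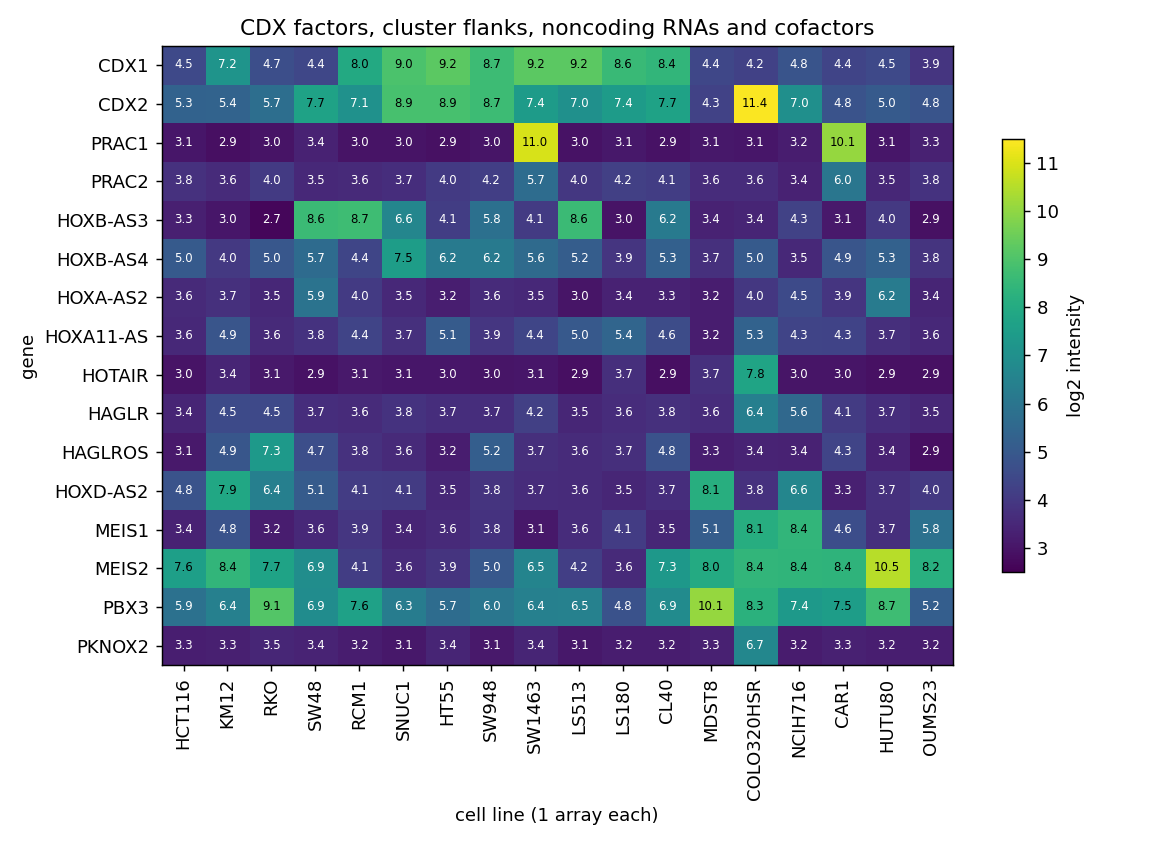
Log2 intensity of CDX factors, flanking genes, noncoding RNAs and cofactors (down) in the 18 lines (across). PRAC1 is bright in SW1463 and CAR1, and CDX2, HOTAIR and PKNOX2 are highest in COLO320HSR.

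At the flanks, PRAC1, a gene beside HOXB13 known from prostate and distal gut, was at 10.97 in SW1463 and 10.07 in CAR1 and at most 3.35 in the other 16 lines. Its neighbour PRAC2 was detected in the same lines, at 5.68 in SW1463 and 6.04 in CAR1. Both lines also had HOXB13 detected, at 4.83 in SW1463 and 5.31 in CAR1, as did 7 lines without PRAC1 by the probe set used. Of 15 flanking genes read, 9 were detected in all lines. CDX2, a caudal-type factor that regulates HOX genes in the gut, was at 11.44 in COLO320HSR, 8.89 in HT55 and not detected in MDST8 (4.28). CDX1, its relative, was at 9.25 in HT55 and not detected in COLO320HSR, CAR1 and OUMS23. COLO320HSR therefore had the highest CDX2 with CDX1 not detected. For CDX1 this call is close, with 4.23 in COLO320HSR and 4.36 in CAR1 just under background. MDST8 (4.41) and SW48 (4.42) lay just above it. PDX1 reached 4.54 in COLO320HSR, and CDX4, GSX1 and GSX2 were not detected.

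Among regulators of the clusters, 20 of 23 Polycomb genes and 17 of 20 genes listed as trithorax and MLL subunits were detected in all lines. So were 4 of 14 genes of the retinoic acid pathway, a signal that activates 3′ HOX genes. The most variable were ALDH1A1 (3.05 to 12.94), ALDH1A3 (2.87 to 12.35) and ALDH1A2, enzymes that make retinoic acid. ALDH1A2 was at 10.49 in NCIH716 and 5.05 in CAR1 and not detected elsewhere. Of the Polycomb genes, CBX6 ranged from 3.36 in CL40 to 8.99 in CAR1, PCGF5 from 4.99 in HUTU80 to 9.75 in CAR1, and PHF19 from 3.32 in OUMS23 to 9.76 in RKO. MLLT3, KDM6A and AFF1 varied most in the trithorax and MLL list, with MLLT3 from 3.20 in HUTU80 to 8.19 in LS513.

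The culture medium, which the growth protocol text listed by line, was the 1 grouping compared. In limma, 0 of 27 members tested differed between DMEM/F-12 and RPMI 1640 lines at an adjusted p under 0.05, as did 0.00% of 13731 genes, and 1 member and 344 genes had an unadjusted p under 0.05. That member was HOXC4, at 4.34 ± 0.60 in DMEM/F-12 (SD, n = 10) and 5.39 ± 1.48 in RPMI 1640 (SD, n = 8), a difference of -1.06 ± 0.49 (SE, limma adjusted p = 0.999). The median difference (DMEM/F-12 minus RPMI 1640) was -0.19 over the members, with 8 higher and 19 lower, and -0.004 over all genes tested. COLO320HSR, the highest line for 13 members, is among the RPMI 1640 lines. Medium and line cannot be told apart, since each line grew in 1 medium.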

How the data were processed

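Total RNA of 18 cell lines was measured on 1 array each. The deposited values are log2 intensity per probe set, which the authors computed by RMA (affy package), as the submitters' processing notes state. Their versions were not given in the sources used here. RMA corrects background and makes arrays alike, so a shift shared by most genes of a line would not show. The values were used as deposited. Of 54613 probe sets, 40914 named 1 gene, 864 several (not used) and 12835 none, per the platform annotation. Symbols and positions came from RefSeq (GRCh38.p14). The background level was set from 88 probe sets of 52 genes (of 60 listed), of which 6 genes exceeded 6 log2 units in some line. The members and gene lists were chosen with earlier results of these data known. All members are named, as are the cofactor, noncoding, flank and CDX lists, and the 3 genes with the largest SD of each regulator list. Media were compared with limma 3.58.1 (intensity trend, genes detected in at least 1 line) in R 4.3.3, with Benjamini-Hochberg adjustment. The limma comparison of media was tested on simulated data. It called 17 of 50 genes shifted by 1 log2 unit, 41 of 50 shifted by 2, 41 of 50 by 3 and 48 of 50 by 4. It also called 9 of 13531 genes that were not shifted. Differences between media can thus be missed, small ones most often. Alternatives covered the probe set rule, array scaling, background level, range and limma settings. Leaving out each line in turn was done for the media comparison only. The results that describe the HOX genes were repeated without COLO320HSR and without no other line.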

Additional observations from a re-analysis of the deposited data

How the results depend on the processing

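Of 119 alternative values for 9 results, 110 stayed within 1.5 times of the reported count or median. Many of these 110 are from the 3 media results, where the reported count and every alternative were 0. All 9 values that moved were among the 6 other results, which describe the HOX genes. The background level moved the counts most: the 95th percentile was 4.40, the 90th 3.79 and the 99th 8.45, with 6 genes of the background list over 6 log2 units in some line. Members detected in at least 1 line were 9 at the 99th percentile (27 as reported). Members detected in all lines were 7 at the 90th percentile, 0 at the 99th and 1 at 6 log2 units (3 as reported). Member values above background were 38 at the 99th percentile and 125 at 6 log2 units (227 as reported). Lines with no HOXC gene were 0 at the 90th percentile and 15 at the 99th (4 as reported). With a range of 4 log2 units, 13 members were variable (22 as reported). Without COLO320HSR, chosen after seeing the data, 23 members were detected in some line and 15 had a range of 3 log2 units or more, and HOXC12, HOXD3, HOXD10 and HOXD11 were detected in no line. Media gave 0 calls among the members under each limma alternative and with each line left out. No paired analysis was possible because each line is 1 sample with no replicate number shared between media. Signal over background limits dim genes: a value at or under 4.40 has no order.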
